A study of Mus musculus with 6 samples.

Results

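The genes of the mitochondrial respiratory complexes II to V were followed in a brown adipose cell line that lacked MICT1. MICT1 is a microprotein enriched in brown fat, and the aim was to see how its loss altered these genes under stimulation. Members were taken by their symbols, namely Sdha to Sdhd for complex II, Cyc1 and names beginning with Uqcr for complex III, names beginning with Cox4 to Cox8 for complex IV, and names beginning with Atp5 for complex V. This gave 45 of the 13283 genes in the table, of which 40 code for subunits that most tissues use, 3 code for tissue isoforms of complex IV subunits, 1 is Cox7a2l, which helps to join complexes III and IV, and 1 is the pseudogene Cox7c-ps1. RNA-seq was available from 3 Scr and 3 MICT1 KO libraries. Both groups came from a single immortalized mouse brown adipose (BAT) line that stably expressed Cas9. Scr cells carried a scrambled single guide RNA and are labelled WT, and knockout cells carried guides against MICT1. The knockout cells were pools rather than clones, and the labels do not say which pool gave which library. All 6 cultures had been put through differentiation into brown adipocytes. They were given 10 µM forskolin, an activator of cAMP synthesis, for 6 h on day 6, so that no unstimulated culture entered the comparison. The study calls its replicates biological, without saying for these libraries whether they were separate cultures from the start, and p-values measure only the spread between these samples.

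Complex II, succinate dehydrogenase, passes electrons from succinate of the citric acid cycle to ubiquinone. Complex III hands them from ubiquinol to cytochrome c, complex IV (cytochrome c oxidase) passes them on to oxygen, and both pump protons out of the matrix. Complex V, the ATP synthase, lets protons flow back to make ATP. Brown fat is rich in the electron transport chain and known for comparatively little ATP synthase, since UCP1 lets protons return as heat. Subunits of complexes III to V that the mitochondrial genome codes for were not analysed here, nor was the level of MICT1 itself.

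Most of the shared subunits were modestly lower in MICT1 KO than in Scr cells, while the tissue isoforms of complex IV were not. By limma-trend with Benjamini-Hochberg adjustment over 12507 genes, 31 of the 44 members tested fell, 2 rose and 11 passed in neither direction at an adjusted p of 0.05. MICT1 KO cells differed so widely from Scr cells that 56.9% of all tested genes passed, 28.3% as lower and 28.5% as higher, and the members are to be read against these shares. The members that fell were 70.5% of those tested and those that rose were 4.55%. The median log2 fold change of the members was -0.289, that of the 40 shared subunits -0.304 and that of all tested genes -0.00531. The 3 Scr and 3 MICT1 KO values did not overlap for 33 members that lay lower and 2 that lay higher in the knockout, against 31.2% and 30.9% of all tested genes. Of the tested members, only Cox7c differed by as much as 2-fold, and its values were whole reads in only 1 of 6 libraries. Among all 12507 tested genes, 720 passed as at least 2-fold lower. All 44 tested members had a value of at least 10 in every library, so none entered the test through 1 group alone. The normalised read value of a gene is the deposited estimate of its reads, scaled by the size factor of the library. Fold changes were taken on a log2(value + 1) scale, on which low genes seem to change less than they do.

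**Figure D1:**
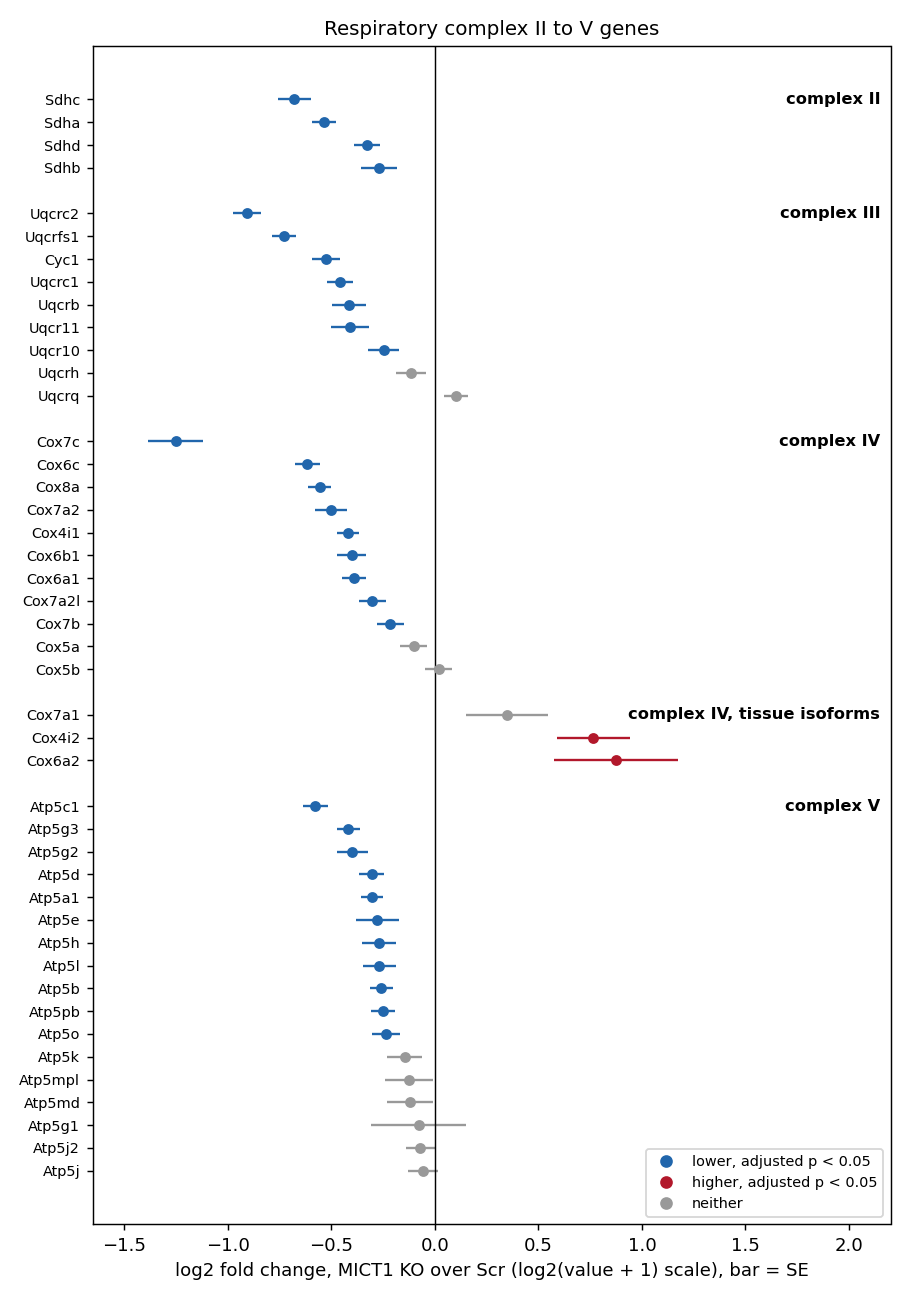
Each point is the log2 fold change of 1 member (MICT1 KO over Scr, log2(value + 1) scale) with its standard error from limma-trend over 3 and 3 libraries, grouped by complex, blue for lower and red for higher at an adjusted p under 0.05. The shared subunits lie mostly left of 0, and Cox4i2 and Cox6a2 are the 2 members to its right that passed.

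Markers of the fat cell differed far more than the respiratory genes did. All 7 adipocyte markers fell, with a median log2 fold change of -3.70 and summed values of 114572 to 135409 in Scr and 13686 to 19807 in MICT1 KO libraries. Ucp1, the uncoupling protein of brown fat, was low in both groups, at 20.8 to 30.5 in Scr and 1.05 to 9.33 in MICT1 KO libraries, so that the labelled brown adipocyte is only weakly marked by it, and Ppargc1a, a coactivator of mitochondrial biogenesis, was at 1.04 to 15.8 over all libraries and too low to be tested. Cidea, Dio2, Prdm16 and Elovl3 were not analysed here. Of 4 preadipocyte markers tested, Ly6a and Pdgfrb rose and Dlk1 and Pdgfra fell, and the 5 markers of that list in the table summed to 4363 to 5011 in Scr and 4693 to 4893 in MICT1 KO libraries. The 2 macrophage markers in the table, Csf1r and Cd68, passed in neither direction, at sums of 81.4 to 132.6 in Scr and 100.5 to 142 in MICT1 KO libraries. Cdh5, the 1 endothelial marker in the table, rose without overlap, from 5.93, 12.1 and 8.14 in Scr cells to 33.4, 30.6 and 25.9 in the knockout, with a log2 fold change of 1.71 (SE 0.449, adjusted p = 0.00275 by limma-trend). The paper reports lower Pparγ and Fabp4 in its knockout cells and calls an effect of the deletion on differentiation in culture plausible. The part of these markers in the falls of the respiratory genes was not tested. Fewer fat cells and less RNA of these genes per cell cannot be told apart in such bulk samples. The libraries held an estimated 15445816 to 17925629 reads, with neither group uniformly deeper.

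The sequence before the start of these genes was read from RefSeq, which gave a window of 300 bases (250 before to 50 after a start, GRCm38) for 33 of the 45 members. There was no entry for Atp5a1, Atp5mpl, Cox4i1, Cox4i2, Cox6a2, Cox6c, Cox7c-ps1, Cyc1, Sdhc, Uqcrb, Uqcrc2 and Uqcrq. The windows were searched on both strands for 4 short motifs known from promoters of respiratory genes or of cAMP-responsive genes. These were the core of the NRF1 site (CGCATGCG, its own reverse complement), an ETS site bound by GABPA (CCGGAAGT), a YY1 site (AAGATGGCG) and the cAMP response element (TGACGTCA, also its own reverse complement). No 2 matches overlapped, and 12 of the 33 members held at least 1 of the 4 motifs. The NRF1 core lay in the window of 7 of the 33 members (21.2%), against 4.4% of 9995 tested genes with a window. The ETS letters were in 4 members (12.1%, against 9.2%), the YY1 letters in 2 (6.06%, against 3.61%) and the cAMP response element in 1 (3.03%, against 3.6%). Of the shared subunits that fell, 5 of 23 (21.7%) held the NRF1 core, and of those that passed in neither direction 2 of 8 (25%) did. A match describes letters only.

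The promoters of 5 members are shown: Uqcr11 carries both NRF1 and ETS letters, Cox6a1 is the ubiquitous partner of a tissue isoform, Cox8a holds the ETS letters at 2 places, Uqcrfs1 has the only cAMP response element among the members, and Cox7a1 stands for the tissue isoforms. Each is written 5′ to 3′ on the strand of its gene, with matched letters in capitals and none matched in Cox7a1.
Uqcr11 (chr10:80406772-80407071, GRCm38, minus strand): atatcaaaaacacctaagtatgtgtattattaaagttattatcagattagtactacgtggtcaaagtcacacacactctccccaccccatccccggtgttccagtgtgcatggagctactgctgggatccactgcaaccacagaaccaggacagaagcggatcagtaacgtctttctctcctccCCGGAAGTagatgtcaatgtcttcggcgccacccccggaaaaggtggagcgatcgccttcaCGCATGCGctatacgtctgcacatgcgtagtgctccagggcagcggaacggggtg
Cox6a1 (chr5:115348909-115349208, GRCm38, minus strand): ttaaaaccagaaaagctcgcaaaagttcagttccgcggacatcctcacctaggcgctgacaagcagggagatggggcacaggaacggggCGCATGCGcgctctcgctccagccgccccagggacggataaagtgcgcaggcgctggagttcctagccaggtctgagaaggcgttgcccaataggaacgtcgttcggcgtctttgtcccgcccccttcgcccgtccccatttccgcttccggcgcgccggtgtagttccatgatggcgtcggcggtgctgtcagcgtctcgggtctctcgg
Cox8a (chr19:7217567-7217866, GRCm38, minus strand): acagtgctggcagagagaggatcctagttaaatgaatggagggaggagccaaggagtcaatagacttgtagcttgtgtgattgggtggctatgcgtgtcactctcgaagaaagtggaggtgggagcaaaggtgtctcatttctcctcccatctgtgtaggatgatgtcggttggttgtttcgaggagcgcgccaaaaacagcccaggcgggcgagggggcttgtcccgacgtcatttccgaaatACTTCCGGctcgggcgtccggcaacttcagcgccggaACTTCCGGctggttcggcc
Uqcrfs1 (chr13:30545267-30545566, GRCm38, minus strand): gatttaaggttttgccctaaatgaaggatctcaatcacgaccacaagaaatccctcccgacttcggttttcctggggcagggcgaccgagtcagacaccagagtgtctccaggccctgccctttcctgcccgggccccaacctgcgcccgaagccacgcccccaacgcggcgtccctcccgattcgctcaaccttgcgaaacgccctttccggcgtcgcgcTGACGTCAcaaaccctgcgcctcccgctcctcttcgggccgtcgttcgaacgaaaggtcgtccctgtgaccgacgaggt
Cox7a1 (chr7:30183921-30184220, GRCm38, plus strand): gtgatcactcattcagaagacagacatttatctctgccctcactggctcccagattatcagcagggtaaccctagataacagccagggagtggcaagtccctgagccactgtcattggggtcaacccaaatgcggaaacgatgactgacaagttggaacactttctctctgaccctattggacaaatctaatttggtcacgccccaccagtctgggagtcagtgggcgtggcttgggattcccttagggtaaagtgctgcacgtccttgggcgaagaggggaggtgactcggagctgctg
Counted from the start site, the NRF1 core of Uqcr11 began at base -5 and its ETS letters at base -66. The NRF1 core of Cox6a1 began at base -161, and the cAMP response element of Uqcrfs1 at base -29. Of the genes shown, the first 4 fell in MICT1 KO cells and Cox7a1 did not. Among the members not shown, Uqcrh, Atp5k, Atp5j and Atp5j2 held a motif and passed in neither direction. Others, such as Sdha and Cox7c, fell with none of the 4 motifs in their window.

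All 4 subunits of complex II fell (100%, against 28.3% of all tested genes). Together they summed to 6460 ± 105 in Scr and 4660 ± 138 in MICT1 KO libraries (normalised read values, SD, n = 3 each), which was 27.9% lower, and their median log2 fold change was -0.43. Sdha, the flavoprotein that oxidizes succinate (chr13:74322255-74350240, GRCm38), had values of 2568, 2504 and 2503 in Scr cells, against 1707, 1807 and 1714 in the knockout. The groups were far apart beside the spread within them, with a log2 fold change of -0.54 (SE 0.0584, adjusted p = 1.11e-07 by limma-trend). Sdhb, the iron-sulfur subunit that carries the electrons on, was at 796, 747 and 828 in Scr cells, against 719.8, 649 and 601 in the knockout. It changed the least of the 4 and still without overlap, at a log2 fold change of -0.27 (SE 0.0866, adjusted p = 0.0116 by limma-trend). Without MICT1 KO replicate 3, its log2 fold change was -0.21 and limma's adjusted p 0.0708.

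The membrane anchors of complex II, which hold its heme, moved the same way. Sdhc was read at 1383, 1427 and 1491 in Scr cells, against 1006, 814 and 876 in the knockout, the strongest fall in the complex, at a log2 fold change of -0.68 (SE 0.0786, adjusted p = 2.69e-07 by limma-trend). Sdhd, its partner in the membrane, was at 1649, 1726 and 1758 in Scr cells, against 1366, 1389 and 1329.9 in the knockout, again with every MICT1 KO value under every Scr value and a log2 fold change of -0.33 (SE 0.0629, adjusted p = 1.48e-04 by limma-trend). Scaled by the length of the principal transcript and the library total (RPKM), Sdhd was the most abundant complex II transcript, at 84.9 ± 2.05 in Scr and 67.8 ± 1.43 in MICT1 KO libraries. The same 4 genes also serve the citric acid cycle. None of the 4 factors known to assemble complex II passed by limma-trend (0 at an adjusted p under 0.05). The lowest was Sdhaf1, which helps to insert the iron-sulfur clusters, with a log2 fold change of -0.29 (SE 0.145, adjusted p = 0.0945 by limma-trend), and without Scr replicate 2 or MICT1 KO replicate 3 it was -0.40 and -0.43, with an adjusted p of 0.0449 and 0.0196. The highest was Sdhaf2, which attaches the flavin to Sdha, at 0.12 (SE 0.0770, adjusted p = 0.205 by limma-trend).

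In complex III, 7 of 9 members fell (77.8%, against 28.3% of all tested genes) and none rose (against 28.5%). The summed value of the complex was 16875 ± 210.1 in Scr and 12863 ± 627 in MICT1 KO libraries (SD, n = 3), 23.8% lower, with a median log2 fold change of -0.41. The core proteins and the subunits that carry heme or the iron-sulfur cluster fell in 4 of 4 cases, with a median of -0.63. The small supernumerary subunits fell in 3 of 5 cases, with a median of -0.25. Both counts stand against the same 28.3% of all tested genes. This division was drawn after the values were known, and the difference between its parts was not tested.

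Uqcrc2, core protein 2 of the complex (chr7:120635189-120659523), had the strongest fall of complex III. It was read at 1892, 1826 and 1939.5 in Scr cells, against 1067, 959 and 997 in the knockout. The lowest Scr library was far above the highest MICT1 KO library, and the log2 fold change was -0.90 (SE 0.0669, adjusted p = 2.80e-10 by limma-trend). Uqcrfs1, the Rieske iron-sulfur protein that takes electrons from ubiquinol, stood at 2902, 2869 and 2883 in Scr cells, against 1833, 1654 and 1739 in the knockout. The 3 Scr values lay close together and the log2 fold change was -0.73 (SE 0.0594, adjusted p = 1.33e-09 by limma-trend). Cyc1, cytochrome c1, gave values of 2545, 2651 and 2625 in Scr cells, against 1987, 1644 and 1823 in the knockout, with a log2 fold change of -0.52 (SE 0.0670, adjusted p = 1.07e-06 by limma-trend). The second MICT1 KO library was the lowest of the 6 for all of these 3 genes. The other core protein, Uqcrc1, fell by 0.46 on the log2 scale.

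Among the small subunits of complex III, Uqcrb, Uqcr11 and Uqcr10 fell, by 0.41, 0.41 and 0.25 on the log2 scale. Per length, Uqcr10 was the most abundant transcript of the complex in Scr cells, with an RPKM of 183.8 ± 6.06 in Scr and 156 ± 12.1 in MICT1 KO libraries, while in the knockout Uqcrq stood above it, with an RPKM of 173 ± 6.54 in Scr and 186 ± 8.59 in MICT1 KO libraries. The read values of Uqcr10 were 1236, 1358 and 1324 in Scr cells, against 1197, 1015 and 1097 in the knockout. They did not overlap between the groups, and its log2 fold change was -0.25 (SE 0.0743, adjusted p = 0.00789 by limma-trend). Uqcrh, the hinge protein that helps cytochrome c1 meet cytochrome c, and Uqcrq, a small membrane subunit, passed in neither direction. Uqcrh had values of 1149, 1262 and 1281 in Scr cells, against 1122, 1074 and 1215 in the knockout, which overlapped, with a log2 fold change of -0.11 (SE 0.0729, adjusted p = 0.191 by limma-trend). Uqcrq was the only subunit of complex III with a higher mean in MICT1 KO cells, at 2754, 2816 and 2612 in Scr cells, against 3075, 2942 and 2773 in the knockout. Its ranges overlapped too, with a log2 fold change of 0.10 (SE 0.0591, adjusted p = 0.147 by limma-trend). The values of Uqcrq were whole reads in only 4 of 6 libraries, as happens where a counter divides reads among similar loci, so its level is uncertain to that extent.

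Of the 6 factors that assemble complex III, 3 fell (50%, against 28.3% of all tested genes) and 1 rose (16.7%, against 28.5%). The lowest log2 fold change was that of Lyrm7, a chaperone of the Rieske protein, at -0.95 (SE 0.560, adjusted p = 0.157 by limma-trend), but its values of 4.21 to 20.4 overlapped between the groups. The highest was that of Uqcc2, which supports the synthesis of cytochrome b, at 0.44 (SE 0.0718, adjusted p = 2.61e-05 by limma-trend). Cytochrome c itself, coded by Cycs and the carrier between complexes III and IV, was at 6392, 6208 and 6069.9 in Scr cells, against 4469, 3990.1 and 3941 in the knockout. It fell in all 3 MICT1 KO libraries below the Scr range, at a log2 fold change of -0.59 (SE 0.0574, adjusted p = 1.86e-08 by limma-trend). Of 15 genes listed for coenzyme Q, the carrier into complex III, 13 were tested. Of these 13, 7 fell (53.8%, against 28.3% of all tested genes) and 2 rose (15.4%, against 28.5%). Their lowest was Coq8a, a kinase-like regulator of coenzyme Q synthesis, at -1.69 (SE 0.252, adjusted p = 7.84e-06 by limma-trend). Their highest was Coq2, which joins the ring to the isoprenoid tail, at 0.42 (SE 0.109, adjusted p = 0.00244 by limma-trend).

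**Figure D2:**
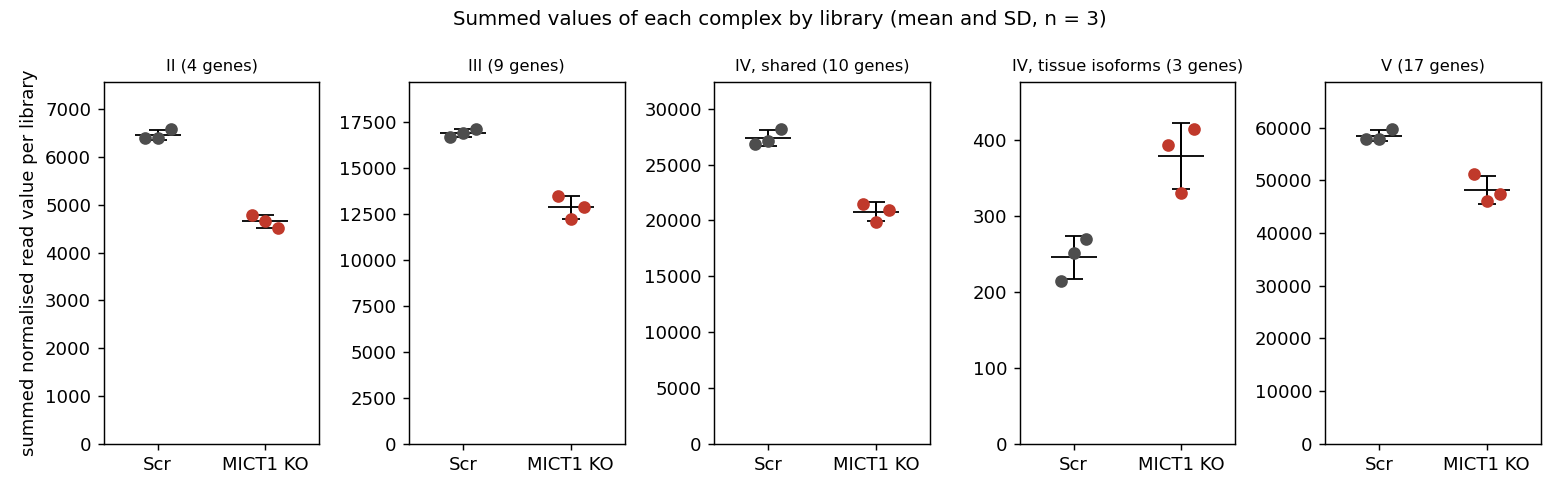
Points are the summed normalised read values of the genes of each complex in 1 library (axes start at 0), with a line at the mean of 3 libraries and the SD as a bar. Scr lies above MICT1 KO without overlap for complexes II, III, IV (shared subunits) and V, and below it for the 3 tissue isoforms of complex IV.

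Complex IV divided into shared subunits that mostly fell and tissue isoforms that did not. Of the 10 shared subunits, 8 fell (80%, against 28.3% of all tested genes) and none rose (against 28.5%). Their summed value was 27382 ± 677 in Scr and 20757 ± 853 in MICT1 KO libraries (SD, n = 3), 24.2% lower, with a median log2 fold change of -0.41. Of the 3 tissue isoforms, 2 rose (66.7%, against 28.5% of all tested genes), and Cox6a2 lost this call without single libraries. With 3 genes, such a share is uncertain. The summed value of the tissue isoforms was 245 ± 28.0 in Scr and 379 ± 43.6 in MICT1 KO libraries. The 3 tissue isoforms thus held a small share of the reads of complex IV in either group. Cox7a2l fell by 0.30 on the log2 scale.

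Cox7c, a small subunit of the oxidase (chr13:86044798-86046795), had the strongest fall of all members, with 375, 424 and 529.8 in Scr cells, against 175, 188 and 189 in the knockout. The Scr libraries differed among themselves but stayed above every MICT1 KO library, with a log2 fold change of -1.25 (SE 0.133, adjusted p = 7.87e-08 by limma-trend). The size of this change is uncertain, since the values of Cox7c were whole reads in only 1 of 6 libraries and reads may have been divided with similar loci. By contrast, 36 of the 40 tested members with values under 5000 (90%) and 85% of all such genes were whole in all 6. The pseudogene Cox7c-ps1 was listed at 5.96, 14.0 and 9.19 in Scr cells, against 2.89, 1.06 and 7.29 in the knockout, and was too low to be tested. After Cox7c, the strongest falls among the shared subunits of complex IV were those of Cox6c and Cox8a. Cox6c was at 2289, 2342 and 2448 in Scr cells, against 1602, 1489 and 1532 in the knockout, with a log2 fold change of -0.61 (SE 0.0610, adjusted p = 2.71e-08 by limma-trend). Cox8a, the ubiquitous isoform of subunit 8, was at 3812, 3999 and 4159.9 in Scr cells, against 2806, 2608 and 2730.3 in the knockout, with a log2 fold change of -0.56 (SE 0.0569, adjusted p = 4.36e-08 by limma-trend). Both had whole reads in all 6 libraries and no overlap between the groups.

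Cox6b1 and Cox7b also fell, by 0.40 and 0.21 on the log2 scale. The subunits 5a and 5b, which sit on the matrix side of the oxidase, passed in neither direction. Cox5a was at 1464, 1428 and 1439.9 in Scr cells, against 1389, 1269.6 and 1384 in the knockout, where the groups did not overlap but lay close, with a log2 fold change of -0.10 (SE 0.0655, adjusted p = 0.200 by limma-trend). Cox5b was at 1639, 1568 and 1587 in Scr cells, against 1592, 1557 and 1709 in the knockout, with overlapping ranges and a log2 fold change of 0.02 (SE 0.0636, adjusted p = 0.824 by limma-trend). Cox4i1, the ubiquitous isoform of subunit 4 and the most abundant transcript of the complex per length, reached an RPKM of 672 ± 15.7 in Scr and 505 ± 26.1 in MICT1 KO libraries. The shared subunits thus did not fall by 1 common amount, and ran from -1.25 to 0.02 on the log2 scale.

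The tissue isoforms of complex IV replace a ubiquitous partner in certain tissues, and each was compared with that partner. Cox4i2, the isoform of subunit 4 known from lung and from low oxygen (chr2:152753916-152765039), was at 90.01, 114 and 116 in Scr cells, against 192, 156 and 198 in the knockout. All 3 MICT1 KO values were above all Scr values, with a log2 fold change of 0.77 (SE 0.176, adjusted p = 8.96e-04 by limma-trend). Its partner Cox4i1 was at 8066, 8321 and 8543 in Scr cells, against 6419.6, 5838 and 6414 in the knockout, with a log2 fold change of -0.42 (SE 0.0544, adjusted p = 1.35e-06 by limma-trend). In RPKM, Cox4i2 made up 1.33% ± 0.148 of the Cox4i1 level in Scr and 3.01% ± 0.224 in MICT1 KO libraries (SD, n = 3), so that the ubiquitous form remained by far the more abundant.

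Cox6a2, the isoform of subunit 6a of heart and skeletal muscle (chr7:128205435-128206366), was low throughout, at 26.7, 45.4 and 30.5 in Scr cells, against 78.2, 61.1 and 49.8 in the knockout. The highest Scr and the lowest MICT1 KO library came close without overlapping, and the log2 fold change was 0.87 (SE 0.298, adjusted p = 0.0167 by limma-trend). Without Scr replicate 1 it was 0.72 with an adjusted p of 0.0671, and without MICT1 KO replicate 1 it was 0.71 with an adjusted p of 0.0893. Its partner Cox6a1, of the liver type, was at 4755, 4712 and 4898 in Scr cells, against 3938, 3509.6 and 3521 in the knockout, with a log2 fold change of -0.39 (SE 0.0573, adjusted p = 6.37e-06 by limma-trend). Cox6a2 came to 0.602% ± 0.182 of the Cox6a1 level in RPKM in Scr and to 1.44% ± 0.241 in MICT1 KO libraries. The muscle markers Acta1 and Des were measured beside it, and neither passed the test (summed values of 62.1 to 77.1 in Scr and 54.8 to 94.4 in MICT1 KO libraries). The other 4 markers of that list, Myod1, Myog, Ckm and Myh3, were not analysed here.

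Cox7a1, the isoform of subunit 7a of heart, muscle and brown fat (chr7:30184171-30186030), did not pass the test. It was at 97.9, 91.8 and 123 in Scr cells, against 123, 113 and 166 in the knockout, where the third Scr library lay within the MICT1 KO range, and its log2 fold change was 0.35 (SE 0.197, adjusted p = 0.141 by limma-trend). Its partner Cox7a2 was at 1299, 1319 and 1469 in Scr cells, against 998, 1028 and 867 in the knockout, with a log2 fold change of -0.50 (SE 0.0784, adjusted p = 1.50e-05 by limma-trend). In RPKM, Cox7a1 came to 12.8% ± 1.2 of the Cox7a2 level in Scr and 23.7% ± 7.35 in MICT1 KO libraries, with most of the spread from the third MICT1 KO library.

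The ratio of isoform to partner, taken within each library, separated the groups for all 3 of these pairs. As log2 of the isoform over the partner, the Cox4i2 ratio was -6.47, -6.18 and -6.19 in Scr cells, against -5.06, -5.22 and -5.01 in the knockout, a difference of 1.18. The Cox6a2 ratio was -7.42, -6.67 and -7.28 against -5.64, -5.82 and -6.12, a difference of 1.26. The Cox7a1 ratio was -3.72, -3.83 and -3.57 against -3.01, -3.18 and -2.38, a difference of 0.85. No Scr ratio reached the MICT1 KO range in any of the 3 pairs. The exact two-sided permutation test gave p = 0.1 for each, the smallest value that 3 against 3 libraries allow, and 0.167 after adjustment over the 5 pairs computed, so that this test could not pass 0.05. Part of each difference comes from the fall of the partner, whose values stand above. Cox8b, the brown fat isoform of subunit 8, was not analysed here.

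**Figure D3:**
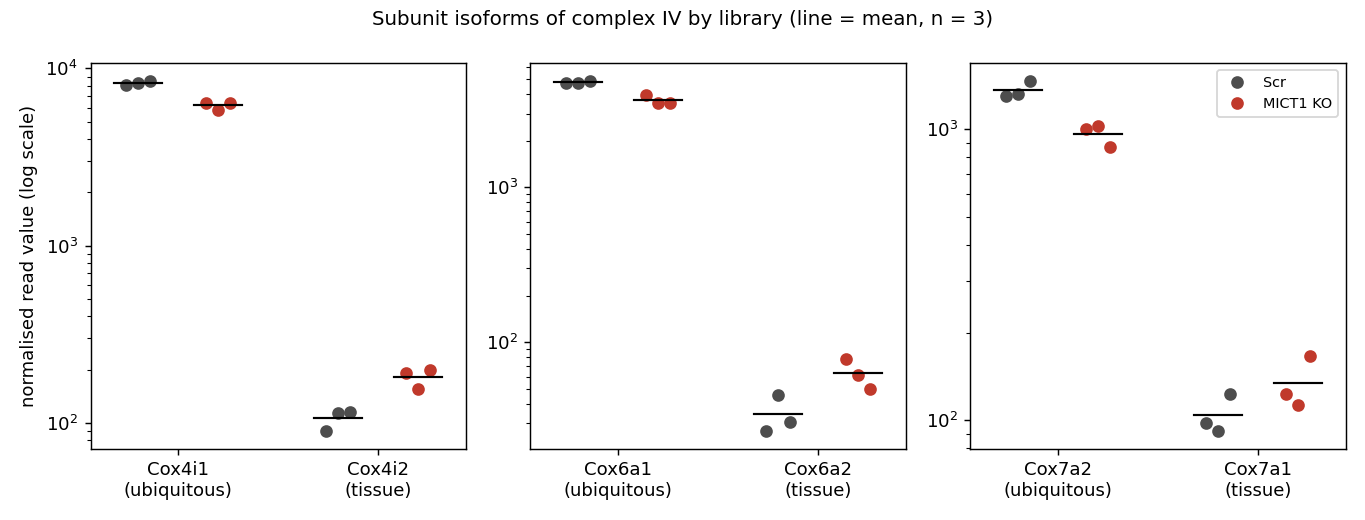
Points are the normalised read values of 1 library on a log axis for the ubiquitous and the tissue isoform of subunits 4, 6a and 7a of complex IV, with a line at the mean of 3 libraries. In each panel the ubiquitous gene is lower in MICT1 KO, while Cox4i2 and Cox6a2 are higher without overlap and the ranges of Cox7a1 overlap.

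Of 22 assembly factors of complex IV, 6 fell (27.3%, a share near the 28.3% of all tested genes), 1 rose and 15 passed in neither direction, with a median log2 fold change of -0.23. The lowest was Pet117, a small assembly factor, at -1.67 (SE 0.492, adjusted p = 0.00660 by limma-trend), with values of 23.0, 34.2 and 35.7 in Scr cells, against 5.96, 19.6 and 5.73 in the knockout. Its level was low and the second MICT1 KO library stood apart from the other 2 while staying below the Scr range. The highest was Cmc2 at 0.36 (SE 0.105, adjusted p = 0.00674 by limma-trend). Of 5 proteins that shape the cristae or join the complexes in supercomplexes, 3 fell (60%, against 28.3% of all tested genes). Chchd6, a member of the MICOS complex at cristae junctions, was the lowest at -1.06 (SE 0.115, adjusted p = 1.05e-07 by limma-trend), and Higd1a, which associates with complex IV, was the highest at -0.03 (SE 0.0589, adjusted p = 0.739 by limma-trend).

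Complex V had the smallest shift of the 4 complexes. Of its 17 members, 11 fell (64.7%, against 28.3% of all tested genes) and none rose (against 28.5%). The median log2 fold change was -0.26, and the summed value was 58440.4 ± 1030.4 in Scr and 48199 ± 2688 in MICT1 KO libraries (SD, n = 3), 17.5% lower. The median of complex V, relative to the Scr mean of each gene, was -0.19, -0.31 and -0.25 in the 3 MICT1 KO libraries. In the same libraries it was -0.42, -0.39 and -0.48 for complex II, -0.39, -0.53 and -0.36 for complex III and -0.35, -0.48 and -0.41 for the shared subunits of complex IV. In each MICT1 KO library complex V thus lay nearest to 0, a difference between complexes that was not tested.

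**Figure D4:**
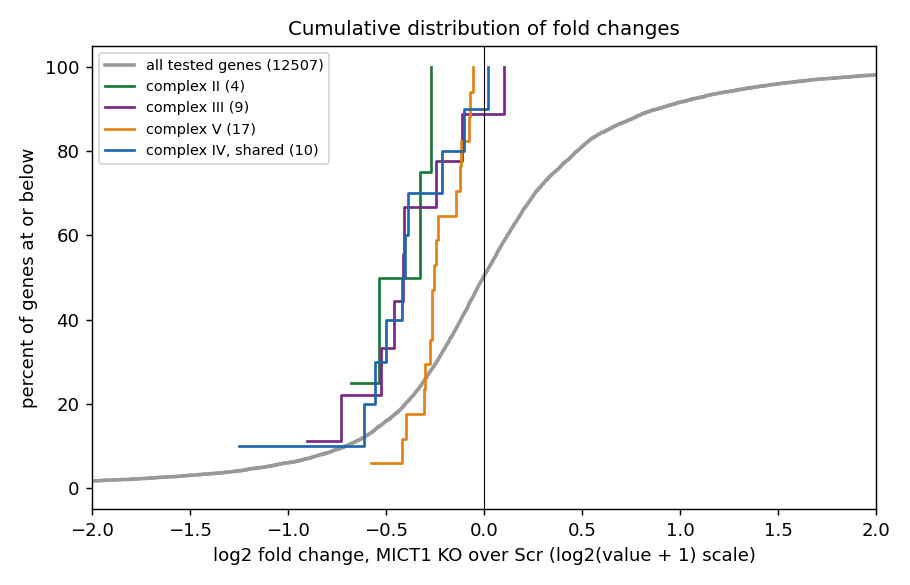
Lines give the percent of genes at or below each log2 fold change (MICT1 KO over Scr, log2(value + 1) scale) for all tested genes and for the shared subunits of each complex. The curve of complex V, with a median of -0.26, crosses the 50 percent level between those of complexes II to IV and that of all tested genes, whose median is close to 0.

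The F1 part of the synthase, which makes the ATP, fell throughout. All 5 of its head and central stalk genes passed as lower (against 28.3% of all tested genes), with a median log2 fold change of -0.30. Atp5c1, the gamma subunit that turns inside the head (chr2:10056030-10080510), had the strongest fall of complex V, with 2602, 2611 and 2834 in Scr cells, against 1869.5, 1742 and 1782 in the knockout. Its groups lay well apart, at a log2 fold change of -0.58 (SE 0.0607, adjusted p = 6.42e-08 by limma-trend). Atp5b, the catalytic beta subunit, had the highest level per length of all members, with an RPKM of 730.4 ± 19.0 in Scr and 614 ± 38.5 in MICT1 KO libraries. Its read values were 22959, 22563 and 23188 in Scr cells, against 20697, 18218 and 18659 in the knockout, lower in every MICT1 KO library, with a log2 fold change of -0.26 (SE 0.0561, adjusted p = 5.60e-04 by limma-trend). Atp5a1, the alpha subunit, and Atp5d of the central stalk fell by 0.30 each on the log2 scale. Atp5e, the epsilon subunit, fell by 0.28, but its adjusted p ranged from 0.0581 to 0.147 without Scr replicate 2 or 3 or without MICT1 KO replicate 1 or 2.

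Subunit c, of which a ring in the membrane is made, is coded by 3 genes whose mature protein is the same. Atp5g3 was at 3578, 3559.6 and 3411 in Scr cells, against 2708, 2575 and 2610.0 in the knockout, with a log2 fold change of -0.42 (SE 0.0551, adjusted p = 1.60e-06 by limma-trend). Atp5g2 was at 1207, 1291 and 1107 in Scr cells, against 913, 937 and 881 in the knockout, with a log2 fold change of -0.40 (SE 0.0747, adjusted p = 1.21e-04 by limma-trend). Both fell without overlap and by a similar amount. Atp5g1, the form known to limit the amount of ATP synthase in brown fat, was low at 148, 88.1 and 79.4 in Scr cells, against 111, 86.4 and 92.3 in the knockout. Its first Scr library was far above the other 2, its ranges overlapped and its log2 fold change was -0.08 (SE 0.230, adjusted p = 0.792 by limma-trend). The log2 ratio of Atp5g2 to Atp5g3 differed by 0.02 between the groups and that of Atp5g1 to Atp5g3 by 0.34, with exact permutation p-values of 0.5 and 0.4 (0.5 each after adjustment). In RPKM, Atp5g2 came to 41.9% ± 2.38 of the Atp5g3 level in Scr and 42.4% ± 1.86 in MICT1 KO libraries.

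The peripheral stalk holds the head still while the ring turns. Of its 4 genes, 3 fell (against 28.3% of all tested genes). These were Atp5h, Atp5pb and Atp5o, by 0.27, 0.25 and 0.23 on the log2 scale. Atp5h had an adjusted p of 0.0606 by limma-trend and a log2 fold change of -0.20 without Scr replicate 3. Atp5j, coupling factor 6 and the highest fold change of the complex, was at 1301, 1314 and 1490.0 in Scr cells, against 1373, 1224 and 1341 in the knockout, with overlapping groups and a log2 fold change of -0.06 (SE 0.0727, adjusted p = 0.512 by limma-trend). The values of Atp5pb were whole reads in 4 and those of Atp5j in 5 of the 6 libraries, so that some of their reads may have been divided with similar loci.

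Of the 5 small membrane subunits of complex V, which hold synthase dimers at the cristae, 1 fell, with a median of -0.12. With 5 genes, that count is not set apart from the 28.3% of all tested genes that were lower. The division of complex V into these parts was also drawn after the values were known, and differences between them were not tested. Atp5l, subunit g, fell by 0.27 on the log2 scale. Atp5j2, subunit f, was at 1802, 1627 and 1714 in Scr cells, against 1770.4, 1496 and 1637 in the knockout, with overlap and a log2 fold change of -0.07 (SE 0.0700, adjusted p = 0.407 by limma-trend). The other 3, Atp5k, Atp5mpl and Atp5md, had log2 fold changes of -0.14, -0.12 and -0.12 and passed in neither direction, although the ranges of Atp5md did not overlap. A p above the threshold does not show that these levels were equal. Of the 3 assembly factors of complex V, Tmem70 and Atpaf2 fell (66.7%, against 28.3% of all tested genes). Tmem70, which helps the ring form, was the lowest at -0.77 (SE 0.0925, adjusted p = 4.34e-07 by limma-trend). Atpaf1, a chaperone of the beta subunit, was the highest at -0.32 (SE 0.141, adjusted p = 0.0601 by limma-trend), and its adjusted p was 0.0496 without MICT1 KO replicate 3.

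The shift of complexes II to V was set beside the other large groups of nuclear genes for mitochondrial proteins. Of 41 genes named as complex I subunits, 24 fell (58.5%, against 28.3% of all tested genes) and 1 rose (2.44%, against 28.5%). Their median log2 fold change was -0.30, and they include Ndufa4, known to sit in complex IV, and its relative Ndufa4l2. Of 78 mitochondrial ribosomal proteins, 36 fell (46.2%) and 3 rose (3.85%), against the same shares of all tested genes, with a median of -0.22. No difference between these groups and complexes II to V was tested.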

How the data were processed

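RNA-seq was performed on 3 Scr and 3 MICT1 KO samples of differentiated BAT cells treated with forskolin. The values the authors deposited are a signal per gene, read here as estimated reads divided by a size factor of the library, because 90.3% to 91.9% of the values under 20 in a library were whole multiples of 1 step within 0.05. They are not counts, so no count model was used. The authors aligned reads to NCBI38/mm10 with Partek software, and the submitters' processing notes also name STAR and DESeq2; the annotation and normalization are not given in the sources used here, and the labels and the methods describe library preparation differently.

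The 12507 genes that reached a value of 10 in 3 or more libraries were fitted as log2(value + 1) with limma-trend (limma 3.58.1, R 4.3.3), two-sided, with Benjamini-Hochberg adjustment over all of them and a threshold of 0.05. Isoform ratios were compared with an exact permutation test. For RPKM, values were divided by the library's summed value and by the length of the principal transcript in GENCODE vM21, which 44 of 45 members had. Positions and promoters come from RefSeq on GRCm38. On simulated libraries of 12412 genes, 98 of 100 genes changed by 1 on the log2 scale and 72 of 100 changed by 0.5 were recovered, with 8 false calls. Far fewer genes were changed there than passed in the data, and the spread was assumed, so these rates need not hold for the data. The members and lists were chosen with earlier results of these data known.

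Full values were given for complex II, for the 3 lowest and 2 highest fold changes of complexes III, IV and V, for the tissue isoforms, their partners and members that rose, and for the member with the highest level per length in each complex. Of other pathway genes, the lowest and highest of each list were named, and other members by counts and range. Cox5a and Cox5b were added after their values were seen. Same-numbered samples did not deviate together (correlations of -0.0236, -0.0155 and 0.0637), so the numbers do not pair them. Alternatives were 2 other scalings, 2 pseudocounts, no filter, a filter on RPKM, limma-voom, a replicate block, each library left out, and a rule of 1.8-fold with an unadjusted p.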

Additional observations from a re-analysis of the deposited data

How the results depend on the processing

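Under the 14 settings that refit the genes, 29 of the 33 members that passed kept their direction and their side of the threshold in each, and so did 8 of the 11 that did not pass. The exceptions were Sdhb, Cox6a2, Atp5e and Atp5h, which lost the call without single libraries, and Cox5b, Atp5g1 and Atp5j, which changed sign. With 1 library left out, the log2 fold change of Cox5b ran from -0.021 to 0.04615, that of Atp5g1 from -0.2515 to 0.1955, that of Atp5j from -0.09393 to 0.00405 and that of Higd1a from -0.05571 to 0.02518, and Higd1a was at 0.01055 with upper quartile scaling. The lower sign of Cox5b came without MICT1 KO replicate 3, and the higher signs of Atp5g1 and Atp5j without Scr replicates 1 and 3. The number of members that rose was 1 to 2 when 1 library was left out, and was 1 without Scr replicate 1 or MICT1 KO replicate 1. The number that fell was 29 to 31. The paper's methods ask for a 1.8-fold difference and a p under 0.05, taken here as limma's unadjusted p. By that rule, 2 of the 44 tested members were lower (Cox7c and Uqcrc2) and 1 was higher. Of all 12507 tested genes, 924 were lower and 1265 higher by it. The members were thus not called lower more often than genes in general under this rule. The median log2 fold change of the other pathway genes was -0.303, and -0.325 to -0.234 with 1 library left out, the latter without Scr replicate 3. The difference in the Atp5g2 to Atp5g3 log2 ratio ran from -0.0156 to 0.0647 with 1 library left out, and was -0.01547 without Scr replicate 3 and -0.0156 without MICT1 KO replicate 2. With the replicate number as a block, 31 members fell and 2 rose as before, no member's call changed, and Sdhaf1 passed at an adjusted p of 0.0403. Atp5g1 was not tested under the filter on RPKM. The cause of these changes was not tested. With 3 libraries a group, shifts near 0.1 on the log2 scale could not be told from 0.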

Other observations

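Some proteins of these complexes carry other names and were looked at after the table was seen. Atpif1, the inhibitor that binds the ATP synthase and stops it from running backwards, rose in MICT1 KO cells, against the direction of the synthase genes. Its normalised read values were 909, 995.6 and 866 in Scr cells, against 1466, 1229 and 1317 in the knockout. No MICT1 KO library overlapped with Scr, and the log2 fold change was 0.53 (SE 0.0790, adjusted p = 7.47e-06 by limma-trend). Ndufa4, named for complex I but known to sit in complex IV, was at 1126, 1174 and 1180.4 in Scr cells, against 949.5, 904 and 880.0 in the knockout. It fell like most shared subunits of complex IV, with a log2 fold change of -0.35 (SE 0.0706, adjusted p = 2.73e-04 by limma-trend). Its relative Ndufa4l2, known from low oxygen, was at 415, 495 and 545 in Scr cells, against 346, 296 and 294 in the knockout. It fell without overlap, with a log2 fold change of -0.63 (SE 0.117, adjusted p = 1.12e-04 by limma-trend), while Cox4i2, the complex IV isoform also known from low oxygen, rose.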
